A study of Zea mays with 4 samples.

Results

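Some genes of the later cytosolic steps of glycolysis, but not all, were followed in developing maize kernels, together with that of pyruvate phosphate dikinase. The 6 genes were ald1 (aldolase), GAPC3 and gpc4 (glyceraldehyde phosphate dehydrogenase), eno1 and eno2 (enolase) and ppdk1 (the dikinase). They were found on the array by gene symbol, or by a RefSeq symbol or synonym of the same Entrez identifier, which gave 14 of the 17620 maize probe sets with values. Array control probe sets were left out. Since 1452 of those 17620 had 1 annotated gene, further probe sets of these enzymes may be present without a name.

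The mutant kernels carried the bt2-H2328 allele and were set against wild-type kernels, both collected 35 days after pollination from untreated greenhouse plants. Each group had 2 samples on 1 array each, with 20 µg of RNA listed for each sample but mutant 2, which had 17 µg. The sources used here do not give the genetic background, the number of plants or whether kernels were pooled. The bt2 gene supplies a small subunit of ADP-glucose pyrophosphorylase, an early enzyme of starch synthesis, and the study asked whether a block at this step turns on other routes for using sucrose.

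Glycolysis in the plant cytosol converts hexose phosphates into phosphoenolpyruvate and pyruvate, which feed respiration, fermentation, amino acids and oil. Aldolase splits fructose bisphosphate into triose phosphates, glyceraldehyde phosphate dehydrogenase oxidises one of these, and enolase makes phosphoenolpyruvate. Pyruvate phosphate dikinase interconverts phosphoenolpyruvate and pyruvate. It is best known from C4 leaves, where it works in the chloroplast, but the same maize gene gives a cytosolic form through another promoter, and the endosperm transcription factor opaque2 is a known activator of that form. In maize seedlings GAPC3, gpc4 and eno1 are known to be induced when oxygen is short, whereas eno2 is not.

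Expression is given as deposited GCRMA values on a log2 scale, so that 1 unit is a doubling. A value of 4 was taken as the limit of measurement, and 57.5% to 58.6% of maize probe sets reached it on each array. bt2 itself read 10.13 and 10.12 on the mutant arrays against 12.67 and 12.64 on the wild-type arrays. All 4 endosperm markers on the array (wx1, FL2, sh2 and zp27) and all 5 embryo markers (EMB5, glb1, glb2, ole1 and vp1) reached 4 on every array, and 0 of 5 green tissue markers did.

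All 6 genes were lower in the mutant. Of their 14 probe sets 12 were measured, and those 12 passed the limma test in that direction, with adjusted p from 0.00661 to 0.0293 (n = 2 per group). Among all 10458 probe sets tested, 22.1% were called lower and 21% higher. With 1 probe set per gene, 6 of 6 members were lower, where 29.4% of 781 genes were. The members were chosen with earlier results of these data known, so these shares describe the 6 and test nothing. Among other genes of the same steps, gpc2 rose by 0.35 and gpc1 fell by 0.46 in this fit, and both calls were lost under some alternatives. Each of the 12 member probe sets had values above 4 on all 4 arrays, so none had entered the test through 1 group alone.

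In each of the 12 measured probe sets both mutant arrays lay below both wild-type arrays, a pattern shared by 39.2% of all probe sets tested. The median difference of the 12 was -1.44, beside -0.02 for all probe sets, and that of the 6 genes was -0.71, beside -0.18 for all genes. Arrays of 1 group differed by at most 0.57 in the mutant and 0.56 in the wild type. The other 2 member probe sets, 1 of eno1 and 1 of ppdk1, read 2.38 to 2.39 and 1.85 to 1.86 and were measured in neither group.

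**Figure D1:**
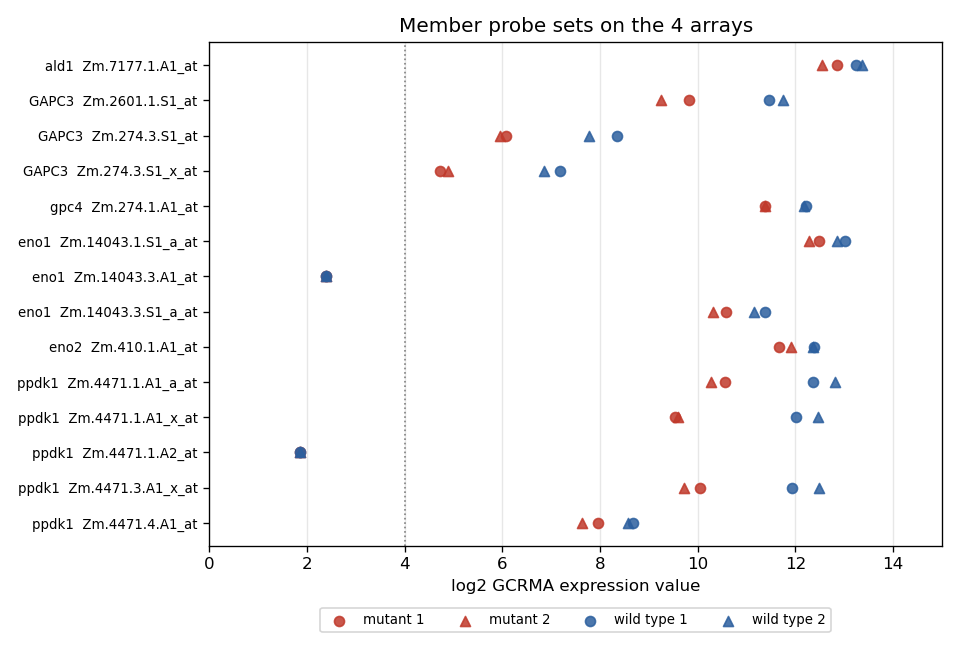
Log2 GCRMA expression value (x axis) of the 14 member probe sets (rows) on each of the 4 arrays, mutants in red and wild types in blue, with the measurement limit of 4 as a dotted line. Both mutant points lie left of both wild-type points in 12 probe sets, and the other 2 read under 4 on every array.

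The differences fell into a smaller and a larger range. Those of ald1, gpc4, eno1, eno2 and 1 probe set of ppdk1 lay between -0.55 and -0.84, and those of GAPC3 and the other 3 measured probe sets of ppdk1 between -2.04 and -2.67. No measured member lay between these ranges.

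**Figure D2:**
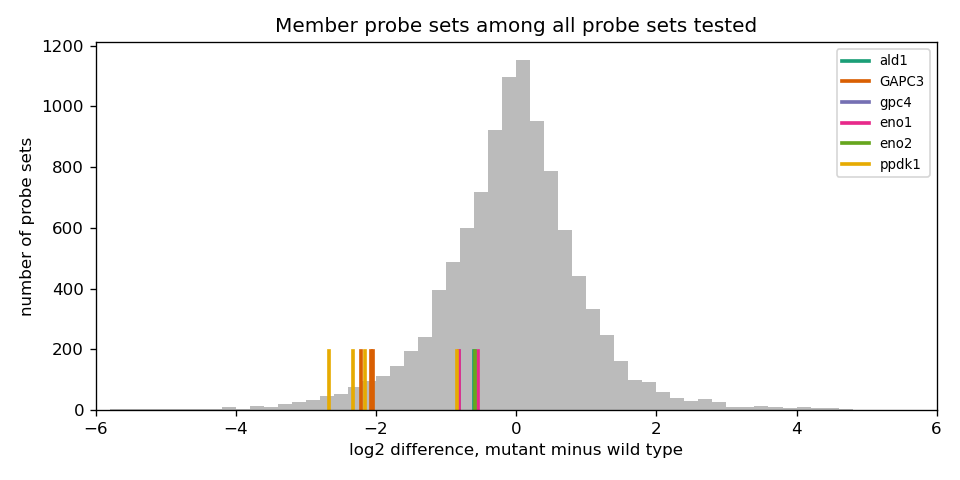
Number of probe sets (y axis) by log2 difference, mutant minus wild type (x axis), for the 10458 probe sets tested, with a coloured mark for each of the 12 measured member probe sets. Every mark lies left of 0, from -0.55 to -2.67.

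The median difference of the 12 measured probe sets kept about its size when 1 array was left out, while single probe sets moved. This median lies in the gap between the ranges above and describes no single member. GAPC3 and ppdk1, with the most probe sets, weigh most in it. ald1 lay between -0.45 and -0.75, and Zm.2601.1.S1_at of GAPC3 between -1.78 and -2.35. The median of the 12 was -1.55 without mutant 1, -1.30 without mutant 2, -1.28 without wild type 1 and -1.42 without wild type 2, and all 12 were below 0 in each fit. In these fits the lone array of a group is assumed to vary like those of the other group. Without mutant 1, mutant 2 or wild type 2, none of the 10458 probe sets passed the limma threshold, so the loss of the member calls there is not particular to them, and 12, 12 and 11 of the 12 had an unadjusted p under 0.05. Leaving out wild type 1 kept 5, namely 2 probe sets of GAPC3 and 3 of ppdk1.

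Genes taken as markers of several kernel tissues moved with the same groups. How specific each is to its tissue in these kernels was not tested. Of the basal transfer layer, which takes up sugar at the kernel base, betl4 fell. meg2, betl3 and BETL1 were called lower as well, but they reached 4 on wild-type arrays alone and so could pass the filter only as lower, and betl2 was not measured. Their level summed over 5 genes on the linear scale was 72 to 107 on mutant arrays and 523 to 889 on wild-type arrays. Of the genes taken as markers of pericarp and other maternal tissue, zag2 and bde1 fell too and p1 was not measured, with sums of 390 to 532 and 968 to 975.

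Of 4 endosperm markers, FL2 and sh2 fell while wx1, at 0.18, and zp27, at -0.33, did not pass, though a second zp27 probe set passed at -0.38. The sums were 33900 to 35100 and 49600 to 49800. Of 5 embryo markers, EMB5 and vp1 rose and 3 did not pass, with sums of 88300 to 93400 and 71900 to 79400. A second measured vp1 probe set overlapped between groups at 0.07. With arrays centred on the poly-A controls described next, EMB5 was -0.80, vp1 -0.77 and that second vp1 probe set -1.17, all called lower. Among 4 genes taken as aleurone markers dek1 rose, Nkd1 fell, Sal1 did not pass and c1 was not measured, with sums of 1820 to 1850 and 1870 to 1920. Green tissue markers summed to 102 to 106 and 26.1 to 27.7, where every wild-type value was under the limit of 4. psah1, the measured one of 5, reached 4 on mutant arrays alone and so could pass the filter only as higher. The part of these shifts in the results on the members was not tested. In whole kernels, fewer cells of a type cannot be told apart from less RNA per cell.

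The poly-A controls added to the RNA had a median difference of 1.20 between mutant and wild-type arrays. Centring the arrays on these controls moved the median difference of all tested probe sets to -1.25 and that of the 12 members to -2.67. On this scale 12 of 12 were called lower, but so were 8232 of all 10458 probe sets tested. Differences below are relative to the array-wide scale unless the poly-A scale is named.

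ald1, the aldolase gene, had 1 probe set (LOC542261, Zm.7177.1.A1_at). Mutants 1 and 2 read 12.85 and 12.55, and wild types 1 and 2 read 13.23 and 13.36. Both mutants were below both wild types, and the gap between the nearest arrays of the groups was little more than the 0.30 between the mutants. The gene fell by 0.60 (SE 0.14, 95% interval -0.96 to -0.23), or 1.51-fold, with the highest limma adjusted p of the members, 0.0293.

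**Figure D3:**
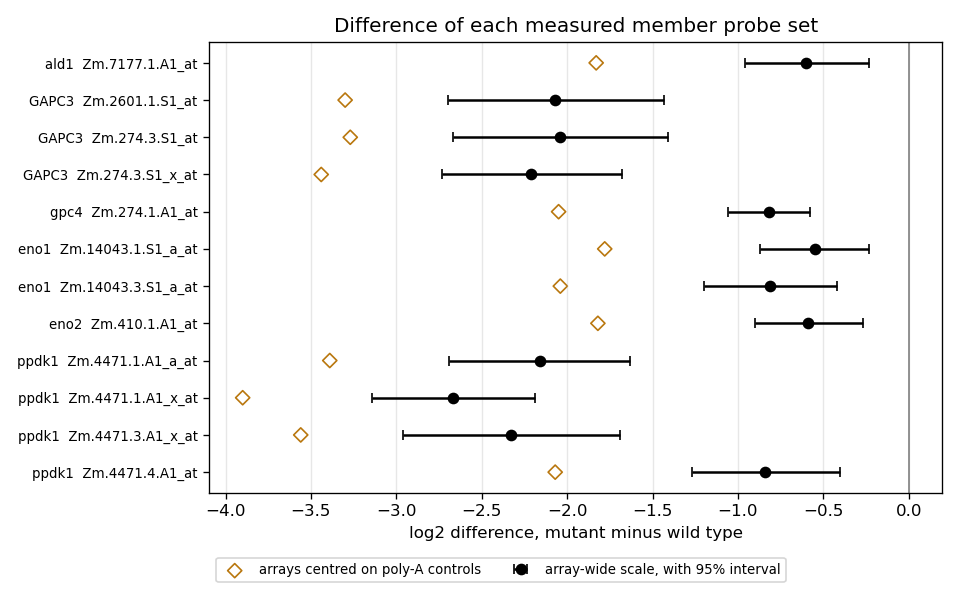
Log2 difference, mutant minus wild type (x axis), of the 12 measured member probe sets (rows). Filled points with bars are on the array-wide scale with 95% intervals, open diamonds on the scale centred on poly-A controls, and all points lie below 0.

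GAPC3 (LOC542333), a cytosolic glyceraldehyde phosphate dehydrogenase gene, was measured by 3 probe sets. The brightest, Zm.2601.1.S1_at, read 9.82 and 9.25 in the mutant arrays and 11.45 and 11.75 in those of the wild type. Zm.274.3.S1_at gave 6.08 and 5.96 for the mutants, then 8.34 and 7.78 for the wild types. The groups were well separated in both, by more than arrays of 1 group differed.

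The third, Zm.274.3.S1_x_at, was dimmer, with mutants at 4.72 and 4.89 and wild types at 7.17 and 6.85. Its groups did not overlap either. The differences were -2.07 (SE 0.24), -2.04 (SE 0.24) and -2.21 (SE 0.20), or 4.18-fold, 4.11-fold and 4.61-fold lower, with limma adjusted p of 0.00845, 0.00855 and 0.00759. The suffix _x marks probe sets with probes that can match other transcripts, and the cluster number 274 is also that of the gpc4 probe set, so the signals of these paralogs may not be fully separate there.

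gpc4 (LOC100037774, Zm.274.1.A1_at) varied little within groups. The mutants read 11.38 and 11.38, the wild types 12.22 and 12.18. Both mutants lay below both wild types by far more than the arrays of a group differed. The gene fell by 0.82 (SE 0.09, 95% interval -1.06 to -0.58), or 1.77-fold, with a limma adjusted p of 0.00809.

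Whether both genes of this step changed equally was asked within arrays. GAPC3 minus gpc4 was -1.56 and -2.13 for the mutants and -0.77 and -0.43 for the wild types, which did not overlap. The difference was -1.25, with p = 0.333 in a two-sided exact permutation test, the smallest p that 2 arrays against 2 allow. The test can therefore not pass 0.05 in this design. In the limma fit, the 95% interval of GAPC3 (-2.70 to -1.43) lay below that of gpc4.

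Other genes of this enzyme gave other values. gpc2 (LOC542718) read 13.61 and 13.71 in mutants, 13.36 and 13.26 in wild types, and rose by 0.35 (SE 0.09, limma adjusted p 0.0408). On the poly-A scale it was -0.88 and called lower (limma adjusted p 0.00124). Its call as higher was lost without the filter, without trend and with the replicate block (limma adjusted p 0.0803, 0.0935 and 0.0812). gpc1 (LOC542367, Zm.3765.1.S1_s_at) read 12.22 and 12.48, against wild-type values of 12.76 and 12.86, and fell by 0.46 (SE 0.13, limma adjusted p 0.0439). That call was lost without the filter, without trend, with quantile normalization and with the replicate block, at limma adjusted p of 0.0513 to 0.0835. The sources used here do not say whether this probe set reads gpc1 alone. A second gpc1 probe set, close to the measurement limit, differed by -0.37 and did not pass. The non-phosphorylating enzyme gene gpn1 differed by -0.15 and did not pass, and the plastid genes gpa1 and gpb1 were under 4 on every array.

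The array's Gapdh controls, which are not members, are named for the 5′ end, middle and 3′ end of the transcript. The sources used here do not say whether these probe sets read the transcript of a single gene. At the 5′ end mutants were at 10.66 and 10.30 and wild types at 12.15 and 12.23, a difference of -1.71. The middle and 3′ controls of the same set differed by -0.60 and -0.17. The 3′ values of the groups lay side by side, with 12.91 and 13.07 in mutants and 13.08 and 13.23 in wild types. The difference at the 5′ end minus that at the 3′ end was -1.55. Where the member probe sets lie along their transcripts is not stated in the files, and the part of RNA quality in the member differences was not tested.

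**Figure D4:**
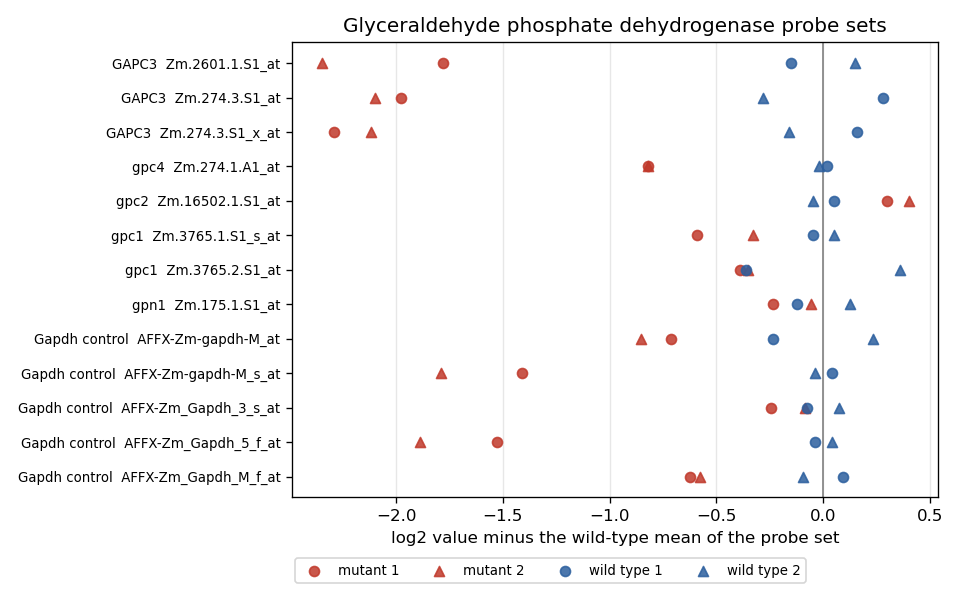
Log2 value minus the wild-type mean of the probe set (x axis) on each array, for probe sets of GAPC3, gpc4, gpc2, gpc1 and gpn1 and for 5 Gapdh control probe sets (rows). Mutant points of the 3 GAPC3 probe sets average -2.07, -2.04 and -2.21, those of gpc4 -0.82, those of gpc2 0.35 (array-wide scale; -0.88 on the poly-A scale), and those of the 5′ and 3′ controls -1.71 and -0.17.

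eno1 (LOC732811), the enolase gene known to respond to low oxygen, had 2 measured probe sets. Zm.14043.1.S1_a_at read 12.48 and 12.28 in mutants, 13.01 and 12.85 in wild types. Zm.14043.3.S1_a_at was dimmer, at 10.58 and 10.32, and 11.37 and 11.15. The groups did not overlap in either. They fell by 0.55 (SE 0.12, limma adjusted p 0.0256) and 0.81 (SE 0.15, limma adjusted p 0.0174), or 1.46-fold and 1.75-fold.

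eno2 (LOC542316, Zm.410.1.A1_at) gave 11.66 and 11.90 in mutants and 12.37 and 12.36 in wild types. The wild types were nearly equal, and both mutants lay below them. It fell by 0.59 (SE 0.12, 95% interval -0.90 to -0.27), or 1.5-fold, with a limma adjusted p of 0.0214.

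Within arrays, eno1 minus eno2 was 0.82 and 0.38 for mutants, 0.64 and 0.49 for wild types. The wild-type values lay between the mutant values. The difference was 0.04, with p = 1 in the two-sided exact permutation test, and it turned to -0.23 with the other eno1 probe set. Since 0.333 is again the smallest possible p, the test could not have detected an unequal change of any size.

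ppdk1 (LOC542759) had 4 measured probe sets, which gave unequal sizes. Zm.4471.1.A1_a_at read 10.55 and 10.28 in mutants, 12.35 and 12.80 in wild types. Zm.4471.1.A1_x_at read 9.54 and 9.60, then 12.01 and 12.46. Both separated the groups by several times the gap between arrays of a group.

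Zm.4471.3.A1_x_at gave mutant values of 10.04 and 9.71 and wild-type values of 11.92 and 12.48. Zm.4471.4.A1_at gave 7.95 and 7.63, then 8.67 and 8.58. Again no mutant array reached a wild-type array, though the groups of the last probe set were closer together. In this order the differences were -2.16 (SE 0.20), -2.67 (SE 0.18), -2.33 (SE 0.24) and -0.84 (SE 0.16), or 4.47-fold, 6.34-fold, 5.01-fold and 1.78-fold lower. Their limma adjusted p were 0.0076, 0.00661, 0.00783 and 0.0201.

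The first and the last of these, a pair chosen after the values were seen, were set against each other within arrays. The first minus the last was 2.60 and 2.65 in mutants, 3.68 and 4.22 in wild types, without overlap. The difference was -1.33, with p = 0.333 by the two-sided exact permutation test, again the smallest possible. In the limma fit the interval of the last, -1.27 to -0.40, lay above that of the first, -2.69 to -1.63. The files do not say which form of ppdk1, leaf or cytosolic, each probe set reads, and the _x probe sets may also read related transcripts.

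The activator gene o2 was lower too. It read 10.36 and 10.16 in mutants, 11.20 and 11.42 in wild types, and fell by 1.05 (SE 0.14, limma adjusted p 0.00989), while its other probe set differed by -1.19 and did not pass. In a list of o2 and its known targets besides ppdk1, 2 of 3 genes fell, namely o2 itself and FL2, where 29.4% of all genes did. The third was not called, and the median was -1.05, beside -0.18 for all genes. The part of o2 in the ppdk1 difference was not tested. The zein gene FL2 fell by 3.68 (SE 0.10), and lkrsdh1, for lysine breakdown, differed by -0.75 with a limma adjusted p of 0.0533, but was called lower with the stricter filter (0.0417), quantile normalization (0.0365), poly-A centring and the replicate block (0.0348), so that all 3 passed there. pdrp1, for the regulatory protein that switches the dikinase on and off in leaves, overlapped between groups, with mutants at 5.19 and 6.29 and wild types at 5.54 and 4.23.

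Genes that bring hexoses into glycolysis moved both ways. Of 4 measured, 1 rose, 1 fell and 2 were not called (median 0.03), where 20.9% of all genes rose and 29.4% fell. phi1, for glucose phosphate isomerase, read 11.40 and 11.29 in mutants, 10.96 and 10.73 in wild types, and rose by 0.50 (SE 0.13). On the poly-A scale phi1 was -0.73 and called lower (limma adjusted p 0.00461). Its call as higher was lost without the filter (limma adjusted p 0.0597) and without trend (0.0582). The fructokinase gene frk2 fell by 1.03 (SE 0.20), which did not pass with the replicate block (limma adjusted p 0.0574). frk1, another fructokinase gene, differed by 0.11 and the phosphofructokinase gene pfk1 by -0.05, and neither passed.

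Of the genes matched to a list of other lower glycolysis symbols, gpc2, at 0.35, and ptk1 rose and gpc1, at -0.46, fell. The median of 0.35 counts ptk1. No gene of triose phosphate isomerase, phosphoglycerate kinase or phosphoglycerate mutase was matched by the symbols used. Of all genes 20.9% rose and 29.4% fell. ptk1 matched the list through its synonym PK1 and is not known here to encode a pyruvate kinase. Its mutant arrays read 5.64 and 5.05, and their mean was at least 2.54-fold above the wild types, which were under 4, so that it could pass the filter only as higher.

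Among other genes around phosphoenolpyruvate, 1 of 4 measured rose, 1 fell and 2 were not called, with a median of 0.34. Again, 20.9% of all genes rose and 29.4% fell. The carboxylase gene pep4 read 8.76 and 9.51 in mutants, 8.18 and 7.73 in wild types, and rose by 1.18 (SE 0.32), which became -0.05 on the poly-A scale and was not called without the filter (limma adjusted p 0.0882) or with the replicate block (0.098). PPCK1, for a kinase of that carboxylase, had unequal arrays, with mutants at 4.13 and 3.14, the latter under the limit, and wild types at 5.65 and 7.50. It was called lower at -2.94 (SE 0.73), a size that was -1.99 with a pseudocount of 16, -2.02 without wild type 2 and -3.87 without wild type 1. Its call was lost without the filter (limma adjusted p 0.0856) and with the replicate block (0.086). pep7 differed by -0.17 and was not called, as was pdrp1 at 0.86, and the C4 leaf gene pep1 was under 4 throughout.

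Genes known to be induced by low oxygen outside glycolysis were mixed. Of 7 measured, 2 rose, 1 fell and 4 were not called, with a median of -0.13, where 20.9% of all genes rose and 29.4% fell. pdc2, for pyruvate decarboxylase, read 13.32 and 13.25 in mutants, 11.90 and 11.69 in wild types, and rose by 1.49 (SE 0.11), or 0.26 and not called on the poly-A scale. The haemoglobin gene Hb was at least 3.14-fold higher by the mutant mean, with mutants at 4.89 and 6.41 and wild types under 4, and it too could pass the filter only as higher. By mutant 1 alone the bound was 1.85-fold and by mutant 2 alone 5.31-fold, and the call was lost without the filter (limma adjusted p 0.0737). The alcohol dehydrogenase gene adh2 fell by 1.73 (SE 0.33), and its call was lost without the filter (limma adjusted p 0.0559) and with the replicate block (0.059). pdc1, at -0.77, adh1, at -0.13, pdc3, at 0.16, and the sucrose synthase gene sh1, at -0.32, did not pass, while a second sh1 probe set passed at -2.77.

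**Figure D5:**
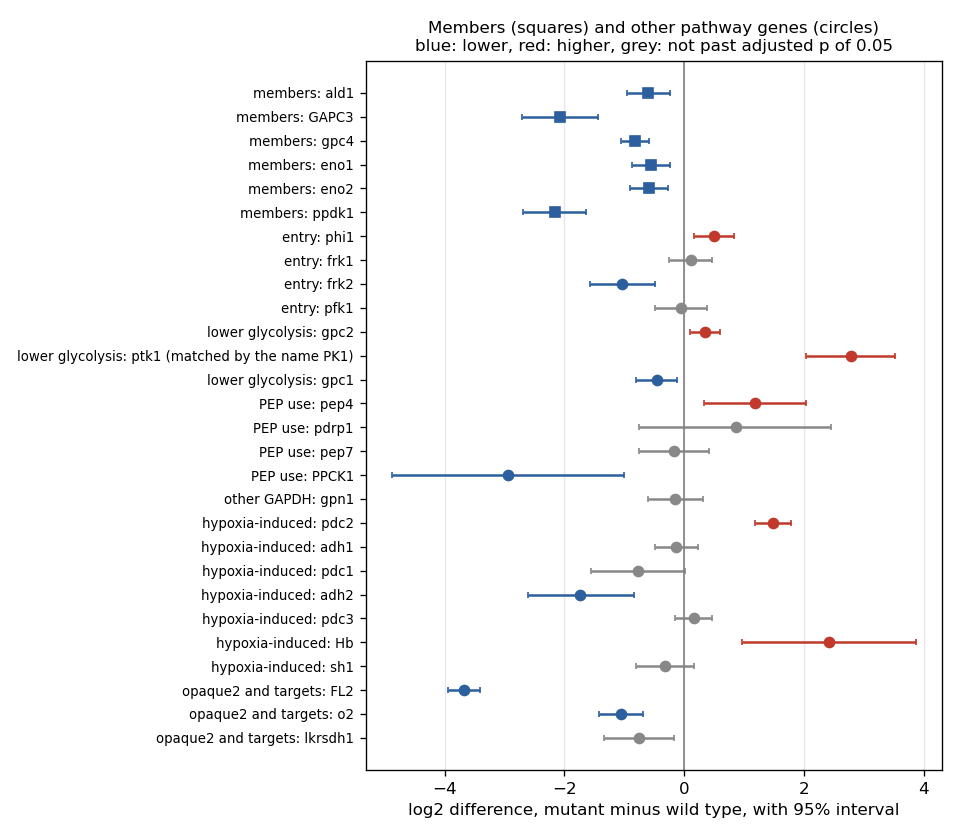
Log2 difference, mutant minus wild type, with its 95% interval on the array-wide scale (x axis), for the 6 members (squares) and the measured genes of the other lists (circles), 1 probe set per gene. Blue is lower, red higher and grey not past the threshold; the 6 squares lie below 0 and the circles on both sides.

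The genes most like each member across the 4 arrays were found among 702 named genes by the root mean square difference of centred log2 values. For GAPC3 they were akh2 (0.08), fae1 (0.09) and ppdk1 (0.13). For ppdk1 they were akh2 (0.05), CesA-9 (0.08) and ss2 (0.13). akh2 read 5.73 and 5.37 in mutants, 7.49 and 7.86 in wild types.

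The members with smaller differences lay near other genes. These were IDP1950, mez1 and Hda1 for ald1 (0.04 to 0.06), homeobox1, ltk1 and TUBB2 for gpc4 (0.05 to 0.06), spp1, GA20 and mbd106 for eno1 (0.03 to 0.05), and pdi7, nfc104 and cax1 for eno2 (0.04 to 0.06). GA20 and nfc104 did not pass the limma threshold. With 4 arrays, genes with a group difference of the same size lie close together by this measure.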

How the data were processed

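RNA of 2 bt2 mutant and 2 wild-type kernel samples was measured on 1-colour Affymetrix maize arrays. The authors deposited 1 log2 value per probe set and array, from GCRMA per the submitters' processing notes. GCRMA models background from probe sequence, then normalizes arrays and combines probes. Deposited values lie between 1.31 and 15.44, from which the log base was read. The sources used here give neither the GCRMA version nor whether all arrays were normalized together.

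Probe sets got gene names from the platform annotation, brought up to date by Entrez identifier against RefSeq genes (Zm-B73-REFERENCE-NAM-5.0). Of 1452 probe sets with 1 gene, 1377 matched. Another 1 had several genes and 16167 had none. No genome build is named in the files, so coordinates are left out, and promoter motifs and other sequences were not analysed here.

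A log2 value of at least 4 on at least 2 arrays was required, which kept 10458 probe sets and removed 7162. The groups were compared by limma 3.58.1 (R 4.3.3, lmFit and eBayes with trend, two-sided), adjusted by Benjamini-Hochberg over the kept probe sets at a threshold of 0.05. SE is moderated, and intervals are 95% intervals of that fit. Genes with several probe sets were counted by the one with the highest mean. Folds against a group under 4 on every array are bounds against 4. The fit was tested on simulated data. Plots used matplotlib 3.10.9 (Python 3.11.15).

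Named genes were all members, all measured genes of lists with 6 or fewer, the 4 with the smallest p of the longer list, bt2, and the 3 named genes nearest to each member. The remaining hypoxia genes, the ppdk1 probe set pair and the Gapdh controls were chosen after values were seen. Members, lists and alternatives were chosen with earlier results of these data known. Separate plants are not stated in the labels, so p-values measure only how these samples spread, possibly for technical reasons, and the number of arrays limits precision. Alternatives were no filter or a stricter one, quantile normalization, centring on poly-A controls, no trend, array weights, a pseudocount of 16, the replicate number as a block, other probe sets of a gene, and each array left out.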

Additional observations from a re-analysis of the deposited data

Results flagged for a closer look

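The poly-A controls entered no comparison of maize genes, yet 36 of 36 such probe sets were higher in the mutant, by 0.83 to 2.18 in log2 with a median of 1.20. Hybridisation controls, 27 probe sets, had a median difference of 0.14. Their part in the member differences was not tested.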

How the results depend on the processing

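All 12 measured member probe sets kept their direction under every alternative run, and all 12 passed under the stricter filter, quantile normalization, poly-A centring, no trend, array weights and the pseudocount. Without the filter 10 passed (ald1 and the brighter eno1 probe set did not, largest adjusted p 0.0695). With the replicate block 11 passed (ald1 did not, adjusted p 0.0688), and 3444 of all probe sets. Same-numbered arrays are not stated to share more than a number. Their deviations from the group means correlated at 0.02, which cannot show whether they shared a harvest or a batch. Leaving out 1 array gave 0 to 5 member calls and 0 to 1195 of 4514 calls in all; without mutant 1, mutant 2 or wild type 2 there were 0, with 4523, 4617 and 3633 at an unadjusted p under 0.05. Poly-A centring gave 8536 calls, 304 higher and 8232 lower, and no filter gave 3484 higher and 1778 lower, beside 2199 and 2315 in the reported fit. On the poly-A scale gpc2 was -0.88 and phi1 -0.73, both called lower, and pep4 was -0.05 and not called. eno1 minus eno2 was -0.23 with the other eno1 probe set, and -0.19 to 0.26 with 1 array left out, including -0.04 without wild type 2. GAPC3 minus gpc4 stayed between -0.96 and -1.53. Calls in the lists also moved. Entry genes had 1 without the filter, without trend and with the block, and 4 on the poly-A scale. The lower glycolysis list had 1, namely ptk1, without the filter, without trend and with the block. Plastid and non-phosphorylating dehydrogenases had 1 without the filter and on the poly-A scale. Genes around phosphoenolpyruvate had 1 without the filter and under the stricter filter and 0 with the block. Hypoxia genes had 1 without the filter and 6 on the poly-A scale. With 1 array left out, entry, lower glycolysis and phosphoenolpyruvate lists had 0 calls, and hypoxia and opaque2 lists 0 to 1. lkrsdh1 was gained under the stricter filter, quantile normalization, poly-A centring and the block, which made 3 opaque2 calls, and gpc1 was also lost under quantile normalization (adjusted p 0.0624). The cause of these moves was not tested. Dim probe sets near a log2 value of 4 limit small differences.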

Other observations

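Other Gapdh control probe sets of the array also read lower in the mutant. AFFX-Zm-gapdh-M_s_at was at 11.15 and 10.77 in mutants and 12.60 and 12.52 in wild types, and AFFX-Zm-gapdh-M_at at 8.95 and 8.81, and 9.43 and 9.90. The differences were -1.60 and -0.79. AFFX-Zm-gapdh-3_at and AFFX-Zm-gapdh-5_at were under 4 on every array.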
